A study of Drosophila melanogaster with 212 samples.

Results

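The genes described here are 51 homeodomain and POU transcription factors of Drosophila melanogaster, taken by name from a list that covers the LIM, POU, iroquois, Hox, paired-like, NK-type, TALE, sine oculis and BarH families and a few relatives. All 51 were among the 17104 genes counted, and they were followed as combinations in single neurons that carried Tdc2, the neural tyrosine decarboxylase. The study sorted single octopaminergic and tyraminergic neurons, marked by a membrane-bound green fluorescent reporter, from fly brains and sequenced each cell on its own. Labelled cells numbered 56 from nervy-mutant males, 51 from wild-type males, 54 from nervy-mutant females and 51 from wild-type females. Flies of every group were kept 15 to a vial until day 6 and all cells carried the reporter. The labels name neither the nervy allele nor the driver of the reporter, and they tie no cell to an animal, so each genotype and sex was 1 sample.

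Homeodomain proteins bind DNA through a conserved helical domain, and POU proteins join such a homeodomain to a second DNA-binding domain. In the fly nervous system, combinations of these factors are set up in progenitors and newborn neurons and can be kept into adult life, where they go along with a neuron's lineage, its projections and its transmitter. Octopamine is made in 2 steps: Tdc2 turns tyrosine into tyramine, and Tbh, tyramine beta-hydroxylase, turns tyramine into octopamine, so a cell with Tdc2 and no Tbh is taken as tyraminergic.

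The filter took out 13 cells and nearly identical columns within a group were averaged. That left 189 cells, of which 175 had at least 100 CPM of Tdc2 (counts scaled to a common library total). Of these, 14 had less than 100 CPM of Tbh and are called tyraminergic, with 3 from mutant males, 4 from wild-type males, 3 from mutant females and 4 from wild-type females. The other 161 are called octopaminergic, with 41, 34, 46 and 40 cells in the same order. Vmat, the vesicular monoamine transporter, was at 31398 CPM or more in every tyraminergic cell, and the highest Tbh among them was 62.1 CPM, against a lowest Tbh of 482 CPM in octopaminergic cells. Cells held between 20875 and 3045780 counts. The mutated gene nvy summed to 7.39 CPM in mutant males against 17.5 CPM in wild-type males, and to 9.85 CPM in mutant females against 14.6 CPM in wild-type females. There were 19 pairs of nearly identical columns (correlation of 0.972 or more), of which 9 joined different groups and touched 14 octopaminergic cells, and results that rest on them are given with and without those cells. A running number of 96 or below in the table belonged to 28 cells of mutant males and 20 of wild-type males, but to none of mutant females and 8 of wild-type females. The 8 glial markers summed to a median of 96.8 CPM in tyraminergic and 118 CPM in octopaminergic cells, but reached 110984 CPM in one of the octopaminergic cells.

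A member is called on in a cell at 100 CPM or more. By that measure 22 of the 51 members were on in at least 1 of the 175 cells, 27 had reads but never reached 100 CPM, and Ubx and eve had no read, which allows a share of cells with a read of up to 1.71% for each. The TALE factor exd was on in 150 cells (85.7%, exact 95% interval 79.6 to 90.5). Another 13 members were on in at least 5% of the cells. They were hth in 64 cells, mirr in 49, pdm3 in 43, caup in 34, vvl in 32, ara in 31, pros in 31, pdm2 in 19, scro in 18, zfh1 in 18, Lim1 in 16, nub in 11 and pb in 9. Gsc and ct were on in 8 cells each, and 6 more members in 1 or 2 cells. The silent members included en, inv, ap, Lim3, acj6, unc-4, B-H1 and B-H2, factors well known from other fly neurons. Among them ap came nearest, with reads in 37 cells and a highest value of 99.9 CPM.

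exd and hth are partners: Homothorax, a Meis-type protein, carries Extradenticle, the fly Pbx protein and a Hox cofactor, into the nucleus. exd (FBgn0000611, X 15992468 to 15996509, plus strand, dm6) had a median of 379 CPM in tyraminergic cells and 252.2 CPM in octopaminergic cells. Its sums were 469, 285.99, 328.6 and 404 CPM in tyraminergic cells of mutant males, wild-type males, mutant females and wild-type females, set against 224.7, 234.3, 293 and 298 CPM in octopaminergic cells. Tyraminergic cells were higher in each of the 4 groups, but the sets of values overlapped and the difference did not pass the test (log2 difference 0.43 ± 0.21 SE, adjusted p = 0.56). Here and below this is edgeR's quasi-likelihood test on counts summed per class and group, with group as a block and Benjamini-Hochberg adjustment over the 8329 genes tested. The p-values measure the spread between these 4 pairs of sums only, with each gene's dispersion moderated by those of all genes tested. The SE is the size of the log2 difference divided by the square root of the test's F statistic.

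hth (FBgn0001235, 3R 10507561 to 10639568, minus strand) had the lowest adjusted p of the members tested. It was on in all 14 tyraminergic cells, from 371 to 2133 CPM with a median of 598 CPM, and in 50 of 161 octopaminergic cells (31.1%, interval 24.0 to 38.8), whose median over all cells was 68.1 CPM. The sums were 697, 954, 444 and 659 CPM in tyraminergic cells (mutant males, wild-type males, mutant females, wild-type females), against 90.7, 113.7, 98.96 and 65.5 CPM in octopaminergic cells of the same groups. The lowest tyraminergic sum was thus well above the highest octopaminergic one, and the test gave a log2 difference of 2.82 ± 0.22 (SE, adjusted p = 0.0019, higher in 4 of 4 groups). Under each of 17 alternatives hth passed, with adjusted p between 2.6e-36 and 0.025. Nearly every octopaminergic cell still had some hth: it was read in 154 of 161, and 82 of them lay between 50 and 200 CPM, so the count of cells called on depends on the threshold. Only 6 of the 161 reached the lowest tyraminergic value. Octopaminergic cells with hth on had a median glial sum of 272.7 CPM, against 101.6 CPM in those with less; in cells with a glial sum under 500 CPM the class difference was 2.89 (adjusted p = 0.0024).

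Lim1, scro, zfh1 and Gsc were each on in a larger share of tyraminergic than of octopaminergic cells, and of these only Gsc passed the test. Lim1 (FBgn0026411, X 8756539 to 8805804, minus strand), a LIM-homeodomain factor, was on in 14 of 14 tyraminergic cells, from 108.8 to 471 CPM with a median of 261.4 CPM. It was on in 2 of 161 octopaminergic cells, at 123.6 and 108.7 CPM, and these 2, a mutant male and a wild-type male cell, were a nearly identical pair of columns. Its sums were 241.04, 256.5, 209.2 and 268.4 CPM in tyraminergic cells of mutant males, wild-type males, mutant females and wild-type females, set against 3.78, 4.39, 0.0723 and 0 CPM in octopaminergic cells. No octopaminergic sum came near a tyraminergic one. The fitted log2 difference was 8.22 ± 1.51 (SE, adjusted p = 0.078), which did not pass; over 17 alternatives the adjusted p ran between 1.5e-06 and 0.19, and 3 passed.

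scro (FBgn0287186, 3L 24724162 to 24758036, plus strand), the NK-type gene scarecrow, was on in 13 of 14 tyraminergic cells and lay at 95 CPM in the other one. It was on in 5 of 161 octopaminergic cells (3.11%, interval 1.02 to 7.1). The sums were 390.3, 253.8, 391 and 228.1 CPM in tyraminergic cells (mutant males, wild-type males, mutant females, wild-type females) against 6.40, 19.5, 5.80 and 0.0493 CPM in octopaminergic cells. The groups of values did not overlap, but the log2 difference of 6.23 ± 1.1965 (SE) had an adjusted p of 0.086. The adjusted p was between 1.2e-05 and 0.36 over 17 alternatives, of which 7 passed. The 5 octopaminergic cells with scro on had a median glial sum of 1479 CPM, against 113.7 CPM in the others, and the part of glial RNA in those 5 was not tested.

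zfh1 (FBgn0004606, 3R 30765926 to 30789202, plus strand), a zinc-finger and homeodomain factor known from motor neurons and muscle precursors, was on in 11 of 14 tyraminergic cells and read in all 14, from 45.8 to 339 CPM. In octopaminergic cells it was on in 7 of 161. Its sums were 161.1, 135.4, 94.4 and 181.4 CPM in tyraminergic cells (mutant males, wild-type males, mutant females, wild-type females) against 0.388, 8.03, 17.6 and 9.69 CPM in octopaminergic cells, a log2 difference of 4.44 ± 0.99 (SE, adjusted p = 0.14). Across 17 alternatives the adjusted p was between 9.1e-07 and 0.43, with 4 past the threshold. An antisense RNA gene shares 4.56% of the zfh1 exon bases, and whether the counting used strand is not given in the sources used here.

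Gsc (FBgn0010323, 2L 583540 to 594685, minus strand), the paired-like repressor Goosecoid, was the member most uneven among tyraminergic cells. It was on in 8 of 14, from 107 to 496 CPM, while 1 cell had 86.6 CPM and 5 had none. No octopaminergic cell had it on, and 3 of 161 had any read. Its sums were 294, 72.3, 5.23 and 283.2 CPM in tyraminergic cells of mutant males, wild-type males, mutant females and wild-type females, set against 1.22, 1.11, 0 and 0 CPM in octopaminergic cells. Gsc met the filter on low counts through its tyraminergic sums, and the difference passed the test narrowly, at 8.39 ± 1.36 (log2, SE, adjusted p = 0.049). It no longer passed without mutant males (adjusted p = 0.26), without mutant females (0.14) or without wild-type males (0.086), with a Tdc2 threshold of 50 CPM (0.076) or with running numbers above 96 (0.12), and over all 17 alternatives the adjusted p lay between 4.1e-06 and 0.26. By group, Gsc was on in 3 of 3 mutant male, 1 of 4 wild-type male, 0 of 3 mutant female and 4 of 4 wild-type female tyraminergic cells. With 3 or 4 cells in each group, these counts were not compared further. In the 8 cells with Gsc on and the 6 with less, Lim1 had medians of 301.5 and 218.5 CPM, hth 588 and 613 CPM, and Tdc2 10236 and 8274 CPM. zfh1 had medians of 173.8 and 97.4 CPM and scro 177 and 323 CPM in the same 2 sets, with overlapping ranges. These sets were cut by Gsc itself, and no test was run between them.

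**Figure D1:**
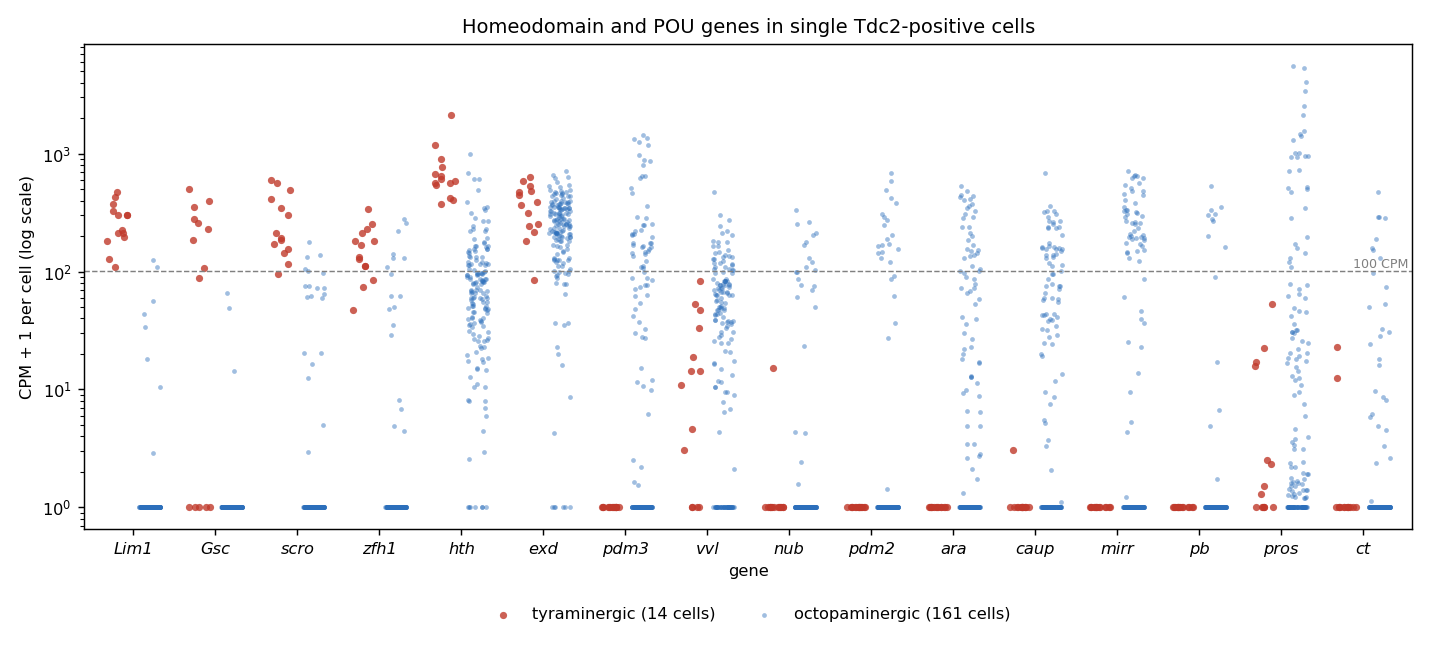
Each point is 1 Tdc2-positive cell, with CPM + 1 on a log axis and a dashed line at the threshold of 100 CPM, for 16 members in 14 tyraminergic cells (red, left of each gene) and 161 octopaminergic cells (blue, right). Lim1 and hth lie above the line in every tyraminergic cell, and pdm3, ara, mirr, pdm2 and pb lie at 0 in all 14.

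Of the POU genes, pdm3 was called lower in tyraminergic cells, and the others did not pass or were not tested. In tyraminergic cells pdm3 and pdm2 had no read, nub had reads in 1 cell at 14.1 CPM, and vvl stayed between 0 and 82.4 CPM, so none of the 4 was on in any of the 14. acj6, the fifth POU gene, was on in no cell of either class. pdm3 (FBgn0261588, 2R 8327490 to 8396280, plus strand), known from olfactory neurons and axon targeting, was on in 43 octopaminergic cells (26.7%, interval 20.1 to 34.2) and reached 1428 CPM. Its octopaminergic sums were 106.96, 113.9, 70.8 and 124.95 CPM in mutant males, wild-type males, mutant females and wild-type females. A count of 0 over the tyraminergic cells allows up to 0.218 CPM (3 counts over all 14 cells). By counts that makes pdm3 at least 483-fold lower there. This bound and the fold bounds given below cover counting error only, not which cells were sampled. The test called pdm3 lower (adjusted p = 0.025, lower in 4 of 4 groups). With no tyraminergic read, pdm3 met the filter on low counts through its octopaminergic sums alone. Without mutant males (adjusted p = 0.072), without wild-type males (0.086) or without wild-type females (0.057) it did not pass. It also failed with a Tdc2 threshold of 50 CPM (adjusted p = 0.40) and in cells with a glial sum under 500 CPM (0.054), and it passed under 12 of 17 alternatives. Octopaminergic cells with pdm3 on had a median glial sum of 215.6 CPM, against 97.9 CPM in those with less, and the part of glial RNA in this was not tested.

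vvl (FBgn0086680, 3L 6790158 to 6794941, plus strand), or drifter, a POU factor of tracheal and neural development, was the most widely read of the POU genes. It had reads in 119 octopaminergic cells but was on in 32 of them (19.9%), with 63 cells between 50 and 200 CPM. Its sums were 15.64, 14.1, 2.79 and 25.8 CPM in tyraminergic cells (mutant males, wild-type males, mutant females, wild-type females), against 53.9, 58, 39.1 and 60.4 CPM in octopaminergic cells. The values did not overlap, yet the log2 difference of -2.21 ± 0.60 (SE) did not pass (adjusted p = 0.23, between 0.0021 and 0.52 over 17 alternatives).

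nub (FBgn0085424, 2L 12587625 to 12628135) and pdm2 (FBgn0004394, 2L 12657165 to 12686306), both on the plus strand and 29 kb apart, are duplicate POU genes that act together in embryonic neuroblast lineages. pdm2 was on in 19 octopaminergic cells, up to 687 CPM, and nub in 11, up to 333 CPM. The pdm2 sums of octopaminergic cells were 26.7, 19.3, 51 and 23.3 CPM in mutant males, wild-type males, mutant females and wild-type females, and those of nub were 17.8, 13.7, 8.46 and 25.2 CPM. By counts pdm2 was at least 134.8-fold lower in tyraminergic cells, but its adjusted p was 0.12. With pdm2 on in only 19 octopaminergic cells, its absence from so few tyraminergic cells does not show a class difference. For nub, with 0.980 CPM in all tyraminergic cells and 16.7 CPM in all octopaminergic cells, the adjusted p was 0.25.

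The iroquois genes ara, caup and mirr lie in 1 complex on 3L and encode TALE homeodomain proteins that pattern the eye, the wing and the body wall. All 3 were nearly absent from tyraminergic cells: ara and mirr had no read, and caup had 2 counts in 1 cell. mirr (FBgn0014343, 3L 12693639 to 12710249, plus strand) was on in 49 octopaminergic cells (30.4%, interval 23.4 to 38.2), the most after exd and hth. Its octopaminergic sums were 99.6, 73.1, 131.6 and 65 CPM in mutant males, wild-type males, mutant females and wild-type females. That puts tyraminergic cells at least 419-fold lower, and the test called the difference (adjusted p = 0.029, lower in 4 of 4 groups). With no tyraminergic read, mirr met the filter on low counts through its octopaminergic sums alone. mirr did not pass without mutant males (adjusted p = 0.076), wild-type males (0.086), mutant females (0.068) or wild-type females (0.055), nor with a Tdc2 threshold of 50 CPM (0.30), and it passed under 12 of 17 alternatives. The median glial sum was 150.7 CPM in octopaminergic cells with mirr on and 116.4 CPM in those with less.

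caup (FBgn0015919, 3L 12609631 to 12621798, plus strand) was on in 34 octopaminergic cells. Its sums were 0, 0.423, 0 and 0 CPM in tyraminergic cells (mutant males, wild-type males, mutant females, wild-type females) against 51, 83.9, 47.8 and 45 CPM in octopaminergic cells, and it was called lower (log2 difference -9.13 ± 1.03 SE, adjusted p = 0.012). Like mirr, caup met the filter on low counts through its octopaminergic sums. The adjusted p of caup was 0.072 without mutant males, 0.17 without wild-type males and 0.055 without wild-type females. It was 0.064 with running numbers above 96 and 0.086 with glial sums under 500 CPM. ara (FBgn0015904, 3L 12580672 to 12596018, plus strand) was on in 31 octopaminergic cells, with sums of 75.2, 39.3, 55.1 and 54.4 CPM in the same groups. It was at least 261.1-fold lower in tyraminergic cells, with an adjusted p of 0.062 that did not pass (1.2e-13 to 0.16 over 17 alternatives, of which 3 passed).

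**Figure D2:**
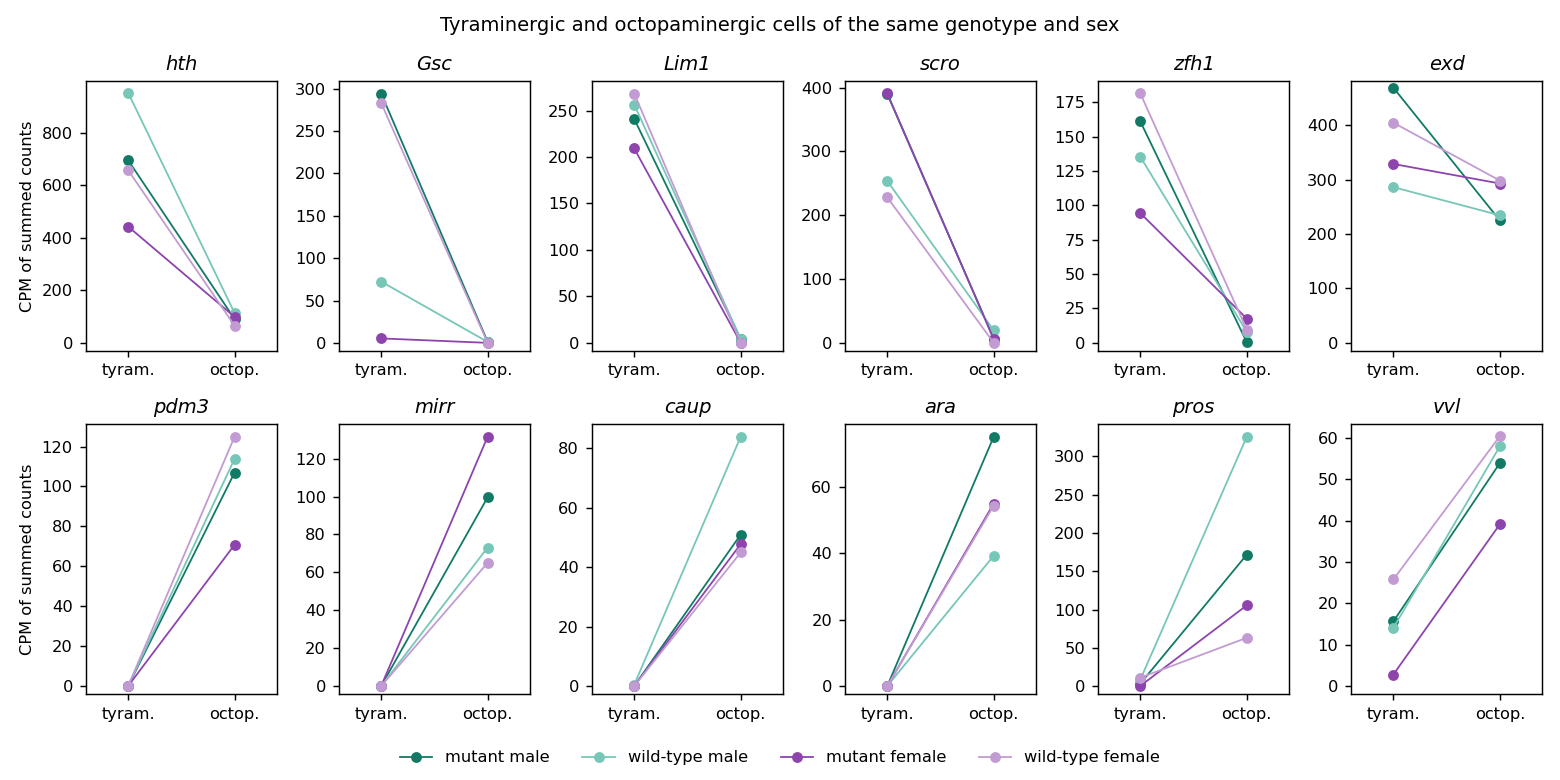
Each panel gives 1 member as CPM of summed counts (linear axis) in tyraminergic cells (left) and octopaminergic cells (right), with a line for each genotype and sex. hth, Gsc, Lim1, scro and zfh1 are higher in tyraminergic cells in all 4 groups, pdm3, mirr, caup, ara, pros and vvl are lower, and the exd values overlap.

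Over all genes, the test called 21 of 8329 higher in tyraminergic cells (0.252%) and 45 lower (0.54%). Of the 51 members, 21 passed the filter on low counts and were tested; 2 of them were called higher (hth and Gsc) and 4 lower (pdm3, caup, mirr and pros). The other 30 were not tested. Of those tested, 7 had no count in tyraminergic cells and passed the filter through octopaminergic cells alone. caup and nub, each read in 1 tyraminergic cell, also passed it through octopaminergic cells. Gsc and Lim1, with octopaminergic sums of at most 1.22 and 4.39 CPM, passed it through tyraminergic cells. Such members entered through the class where they were high, so the share called among those tested is a description. Without a term for the group 5 members were called higher and 7 lower, with DESeq2 5 and 10. A second list of 47 other homeodomain genes gave 10 tested, none higher and 2 lower. Both are LIM-homeodomain genes of the Lmx type: CG4328 was at 0.0726 CPM in tyraminergic and 224.4 CPM in octopaminergic cells (adjusted p = 0.00075), and Lmx1a was at 0 and 131 CPM, at least 604-fold lower (adjusted p = 0.019). Both met the filter through their octopaminergic sums.

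Compared per kilobase of exon, which allows genes to be set side by side, the highest level of a member in tyraminergic cells was that of scro (152 CPM per kb), followed by exd (122.6), hth (114), Lim1 (80.6), Gsc (65.7) and zfh1 (22.1). In octopaminergic cells exd stood at 89.2 CPM per kb, and mirr (23.5), pdm3 (20.5), ara (19.4), hth (14.5), caup (13.1) and vvl (11.2) formed a second tier. These second-tier averages hide a split between cells. pdm3, mirr, ara and caup had a median of 0 CPM over all 161 octopaminergic cells, and medians of 221.4, 266.3, 235.6 and 168.3 CPM among the cells with the gene on.

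pros (FBgn0004595, 3R 11328480 to 11407627, plus strand) encodes Prospero, a divergent homeodomain protein that promotes exit from the progenitor state and is also made in some glia. It was the fourth member called lower, with sums of 3.13, 8.46, 0.174 and 10.9 CPM in tyraminergic cells (mutant males, wild-type males, mutant females, wild-type females) against 171.8, 326, 105.5 and 63.1 CPM in octopaminergic cells (log2 difference -5.16 ± 0.80 SE, adjusted p = 0.042). Most octopaminergic cells had little of it, with a median of 0.924 CPM, while 31 cells had it on, at a median of 944 CPM and up to 5544 CPM. Those 31 cells had a median glial sum of 949 CPM, against 96.6 CPM in the other 130. Of the 8 glial markers, Gs2 was on in 24 of the 31 and in 45 of the 130, nrv2 in 20 and 26, alrm in 11 and 6, Eaat1 in 11 and 3, and repo in 3 and 0; wrapper, moody and Indy were on in none of either set. By running number, 20 of the 31 were among the 49 octopaminergic cells numbered 1 to 96. With a glial sum under 500 CPM, 12 octopaminergic cells had pros on, and in cells below that limit the class difference was -5.03 with an adjusted p of 0.22. The test also failed without mutant males (adjusted p = 0.21), wild-type males (0.22) or mutant females (0.11). It failed as well with running numbers above 96 (0.37), and a Tdc2 threshold of 50 CPM turned the sign, to 0.95 (adjusted p = 0.88); 8 of 17 alternatives passed. The part of glial RNA in the pros values was not tested.

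ct (FBgn0004198, X 7608428 to 7678859, plus strand), the homeodomain gene cut known from sensory organs and dendrite shape, was on in 8 octopaminergic cells and in no tyraminergic cell (log2 difference -4.83 ± 1.68 SE, adjusted p = 0.33). All 8 also had pros on, and 5 of them had zfh1 on. Of the 7 octopaminergic cells with zfh1, those 5 had ct and 6 had pros. The median glial sum was 56.4 CPM in the 8 cells with ct and 74.9 CPM in the 7 with zfh1, and 3 cells of each set were above 500 CPM. In the cells with a glial sum under 500 CPM, all 5 with ct still had pros. By group, ct was on in 0 mutant male, 2 wild-type male, 4 mutant female and 2 wild-type female octopaminergic cells.

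Hox genes give segmental identity along the body axis, and 1 of the 8 in the list was in regular use. pb (FBgn0051481, 3R 6707800 to 6742063, minus strand), or proboscipedia, a Hox gene of the mouthparts, was on in 9 octopaminergic cells, from 162.1 to 527 CPM, and had no read in any tyraminergic cell. It was on in 1 of 41 mutant male, 2 of 34 wild-type male, 2 of 46 mutant female and 4 of 40 wild-type female octopaminergic cells, with sums of 5.17, 12.2, 14.1 and 10.8 CPM. The mutant male cell with pb on and 1 of the wild-type male cells were the nearly identical pair of columns with Lim1 on. Their counts in these groups are therefore not independent. Once every cell of a nearly identical pair was left out, pb was on in 7 octopaminergic cells. By counts the tyraminergic level was at least 47.1-fold lower (adjusted p = 0.23). With pb on in only 9 octopaminergic cells, its absence from so few tyraminergic cells does not show a class difference. Antp was on in 1 cell at 118 CPM, and 50.1% of its exon bases are shared with CG46458. lab, Dfd, Scr, abd-A and Abd-B had reads in 2, 4, 2, 6 and 1 cells and reached at most 60.3 CPM in any of them, and Ubx had no read. Each of these 6 was on in 0 of 175 cells, which allows a share of up to 1.71%.

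The 14 members on in at least 5% of the 175 cells were read together as a code for each cell. Tyraminergic cells had 4 codes. Of the 14 cells, 10 held Lim1, scro, hth, exd and zfh1 together, 2 lacked zfh1, 1 lacked scro, and 1 lacked both exd and zfh1. The 10 came from all groups, with 3 of 3 mutant male, 2 of 4 wild-type male, 2 of 3 mutant female and 3 of 4 wild-type female cells. Octopaminergic cells had 78 codes among 161 cells, and 49 of these codes belonged to a single cell. The most frequent one was exd alone, in 16 cells (9.94%), followed by exd with mirr and exd with pdm3 in 9 cells each. Tyraminergic cells had a median of 5 members on, from 3 to 5, against 3 in octopaminergic cells, from 0 to 6. Lim1, scro and zfh1 were each on in under 5% of octopaminergic cells and entered the code through the tyraminergic cells. The codes and these medians therefore describe the 2 classes and do not compare them independently. The numbers of codes rest on 14 and 161 cells, and they move with the threshold: at 300 CPM there were 2 and 18 codes. Without the cells of nearly identical pairs there were 4 and 69. Codes can also differ by values near the threshold. The nearly identical pair of octopaminergic columns with Lim1 on had different codes, with mirr at 129.3 and 85.4 CPM and vvl at 115.2 and 48.5 CPM.

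Counted over the 4 POU genes pdm3, vvl, nub and pdm2 and the 3 iroquois genes, all 14 tyraminergic cells had none on. acj6, on in no cell, was left out. Each of the 7 genes was on in no Tdc2-positive cell other than octopaminergic ones. The count therefore describes the 2 classes and does not compare them independently. Of the octopaminergic cells, 78.9% had at least 1: 66 had 1, 36 had 2, 19 had 3 and 6 had 4. The 34 cells with none were 10 of 41 in mutant males, 8 of 34 in wild-type males, 9 of 46 in mutant females and 7 of 40 in wild-type females. These 7 genes therefore split the octopaminergic cells into overlapping sets in each of the 4 groups.

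**Figure D3:**
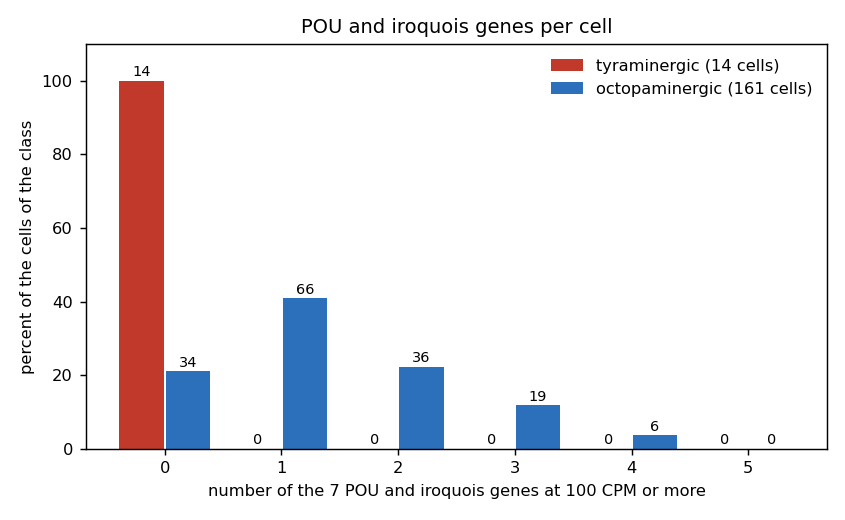
Bars give the percent of cells in each class by how many of 7 genes (pdm3, vvl, nub, pdm2, ara, caup and mirr) were at 100 CPM or more, with the number of cells above each bar. All 14 tyraminergic cells (red) stand at 0, and 66 of 161 octopaminergic cells (blue) stand at 1. The 7 genes were on in octopaminergic cells only among Tdc2-positive cells, so the contrast is a description.

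Among octopaminergic cells, 91 pairs of 14 members were compared, and the pairs below were named after their values were seen. They are descriptions over cells that come from the same 4 groups and differ in depth, and no test was run. Median counts were 554249 in cells with pdm2 on against 901906 in those with less, and 880189 against 847802 for vvl. The part of depth in the pairs was not tested. ara and caup, neighbours 13.6 kb apart, were on together in 18 cells, of 31 with ara and 34 with caup. caup was on in 58.1% of cells with ara (interval 39.1 to 75.5) and 12.3% of cells without (7.20 to 19.2), with a Spearman correlation of 0.81 over the 161 cells. nub and pdm2 were on together in 9 cells, of 11 with nub and 19 with pdm2, with a correlation of 0.89. The third iroquois gene did not follow its neighbours. mirr shared 4 cells with ara and 6 with caup, with correlations of -0.14 and -0.06, although it lies 71.8 kb beyond caup.

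pdm3 and vvl were never on in the same octopaminergic cell, with 43 and 32 cells (correlation -0.29). The upper limit of the exact interval for vvl among the 43 cells with pdm3 was 8.22%, against 27.1% with vvl among the cells without pdm3. No cell had nub or pdm2 on together with ara or caup, over 21 and 47 cells. Instead, pdm3 went with the ara and caup pair: 16 of its cells had ara and 16 had caup, and 25 had either one. mirr went with the nub and pdm2 pair, in 7 of 11 cells with nub and 12 of 19 with pdm2, and with pb in 8 of 9 cells. pdm3 and mirr together covered 86 of the 161 cells and overlapped in 6.

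The pairs were counted again with every cell of a nearly identical pair left out. There ara and caup shared 15 cells of 28 and 28, nub and pdm2 8 of 9 and 17, mirr and pb 7 of 42 and 7, and pdm3 and vvl 0 of 39 and 27. In cells with a glial sum under 500 CPM, the same 4 pairs shared 16, 8, 8 and 0 cells. By group, ara and caup were on together in 4 mutant male, 6 wild-type male, 5 mutant female and 3 wild-type female cells, and nub and pdm2 in 2, 1, 3 and 3 cells of the same groups. achi and vis, 2 TGIF-type TALE genes lying 0.918 kb apart, were read together in 49 of the 175 cells, which was every cell with a vis read, but as near-identical duplicates their reads may not be told apart. Their summed levels were 12.9 and 1.09 CPM as a mean over the 4 groups.

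**Figure D4:**
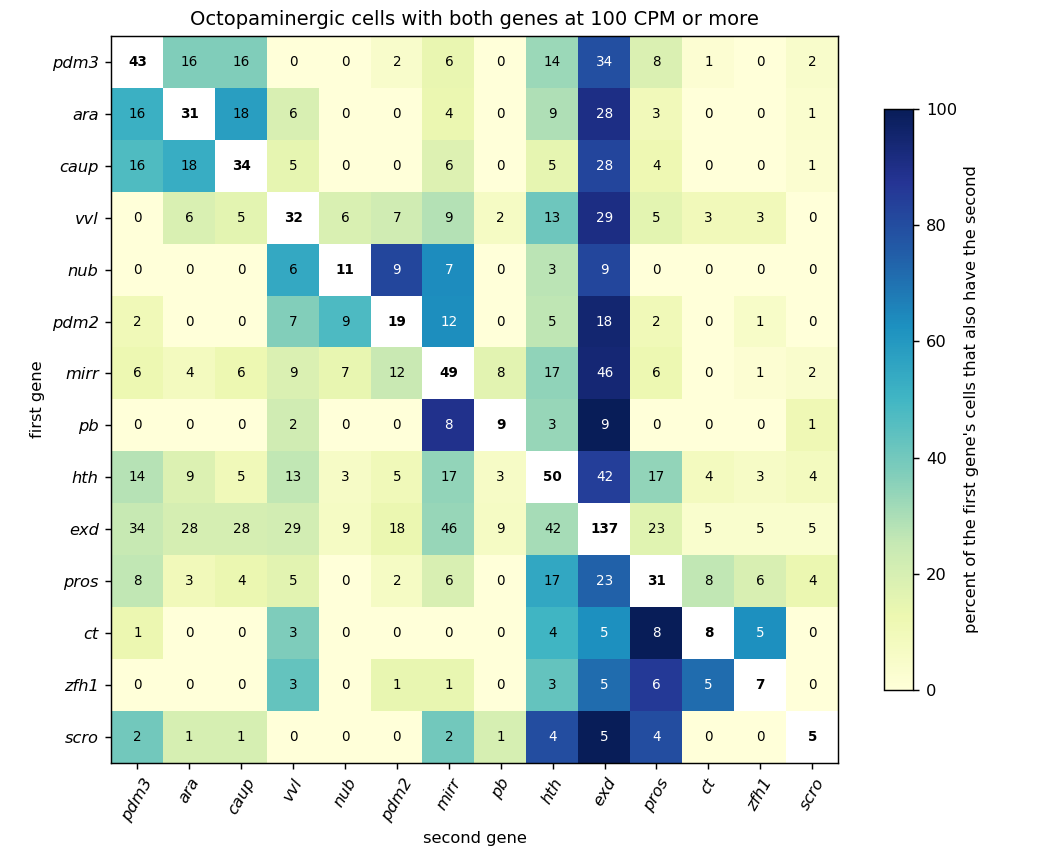
Octopaminergic cells with both genes at 100 CPM or more: each number counts cells, the diagonal gives the cells with the gene, and the shade gives the percent of the row gene's cells that also have the column gene. pdm3 and vvl share 0 cells, ara and caup 18, and nub and pdm2 share none with ara or caup.

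The nervy mutation was set against the wild type within each sex. Each genotype and sex was 1 sample, no test was run, and no difference below has a replicate check. Over Tdc2-positive cells, 11 members averaged 20 CPM or more across the groups, and none of them passed 2-fold in 1 direction in both sexes, where 7 of 5533 genes did (0.127%). The median log2 ratio of the 11, mutant over wild type, was -0.03 in males and 0.09 in females, against 0.01 and 0.02 over all genes. exd was close to even, with 236.3 CPM in mutant males against 240 CPM in wild-type males and 295 CPM in mutant females against 307 CPM in wild-type females.

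mirr was higher in mutants of both sexes. It summed to 94.9 CPM (exact Poisson interval 92.1 to 97.7) in mutant males against 65.02 CPM (62.6 to 67.5) in wild-type males, and to 121.6 CPM (118.05 to 125.1) in mutant females against 59.3 CPM (57.04 to 61.6) in wild-type females. The log2 ratios were 0.54 and 1.02. Such intervals cover counting error only, and the share of cells with mirr on was 31.8% in mutant males against 18.4% in wild-type males and 32.7% in mutant females against 27.3% in wild-type females, all with overlapping intervals. pdm2 had ratios of 0.55 in males and 1.12 in females; without the cell with the most reads in each group they were 1.12 and 0.15, so its size moved with single cells. Lim1 had the opposite sign, with 15.0 CPM in mutant males against 32.3 CPM in wild-type males and 16.1 CPM in mutant females against 23.7 CPM in wild-type females (ratios -1.06 and -0.53). Most Lim1 reads came from tyraminergic cells, which numbered 3 in each mutant group and 4 in each wild-type group.

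Of the 11 members, 6 had the same sign in both sexes, as did 50.4% of genes. Among the rest of the ratios, ara stood at 1.01 in males and 0.03 in females, hth at -0.79 and 0.09, caup at -0.61 and 0.10, pros at -0.82 and 0.73, scro at -0.86 and 0.77, vvl at -0.03 and -0.64, and pdm3 at 0.01 and -0.79. Whether these differ between sexes was not tested. Of the alternatives, restriction to cells with a glial sum under 500 CPM took pdm2 past 2-fold in both sexes (2.75 in males and 1.02 in females), and restriction to running numbers above 96 did so for pros (1.96 and 1.79). At each of these settings 0.147% of genes passed. Above 96, pros was on in 1 of 15 mutant male and 1 of 15 wild-type male octopaminergic cells. In females it was on in 7 of 46 mutant and 2 of 36 wild-type cells there, so the ratios rest on few cells.

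Males against females gave the same count: none of the 11 members passed 2-fold in 1 direction in both genotypes, where 114 of 5533 genes did (2.06%). exd had log2 ratios of male to female of -0.32 in mutants and -0.36 in wild type, and mirr -0.35 and 0.13. pros was the member furthest apart, with 163.8 CPM in mutant males against 97.4 CPM in mutant females, with 291 CPM in wild-type males against 58.5 CPM in wild-type females (0.74 and 2.29). Running number moved with this value. Within octopaminergic cells numbered above 96, pros summed to 119.8 CPM in mutant males against 105.5 CPM in mutant females and to 32.7 CPM in wild-type males against 29.4 CPM in wild-type females. Within cells numbered 1 to 96 it was 597 CPM in 19 wild-type male cells against 200.1 CPM in 4 wild-type female cells, and there were no mutant female cells. With the mean of per-cell CPM, without nearly identical cells, or with all kept cells, pros did pass 2-fold in both genotypes. At these settings 3.50%, 2.18% and 1.68% of genes passed.

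**Figure D5:**
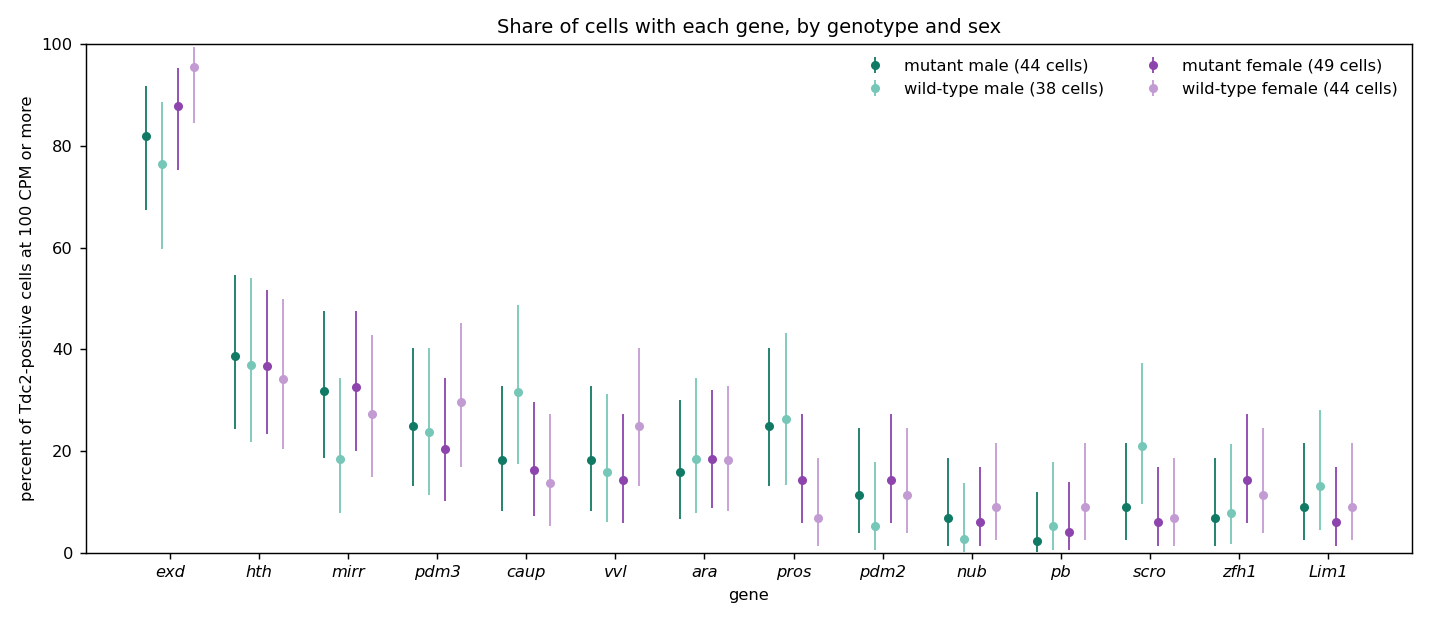
Points give the percent of Tdc2-positive cells with each of 14 members at 100 CPM or more in mutant males, wild-type males, mutant females and wild-type females, with exact 95% binomial intervals as bars (counting error only). Within each gene the intervals of mutant and wild type overlap in both sexes.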

How the data were processed

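Reads were counted by the authors with HOMER (analyzeRepeats.pl over dm6 exons, raw, 1 RefSeq transcript per gene), per the file headers. The submitters' processing notes also name FastQC and edgeR, without roles. The aligner, versions and use of strand are not given in the sources used here. The values deposited by the authors are estimated counts, in steps of 0.5 and not normalized per the file headers, with 56.2% of nonzero values whole. They were rounded for tests. Members, lists and tests were chosen with earlier results of these data known.

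Cells with under 10000 counts or 500 genes were left out, columns of a group correlated at 0.95 or more were averaged, and no doublet caller was run. Classes and calls used 100 CPM. Counts summed per class and group were tested with edgeR 4.0.16 in R 4.3.3 (TMM, filterByExpr, group as block, 3 residual degrees of freedom, adjusted p under 0.05). The pairing comes from the design, since both classes were sampled in each group. Where a group is left out, 3 pairs of sums remain. Alternatives used DESeq2 1.42.0, limma 3.58.1 and other thresholds and sets of cells; the limits on running number and glial RNA were added after the data were seen. Ratios between genotypes and sexes are log2 of CPM + 1 over CPM + 1. Tables were made with Python 3.11.15, pandas 2.3.3 and scipy 1.17.1, and the edgeR step was tested on simulated data. Most named members were on in at least 5% of cells, had an adjusted p under 0.05, or belonged to a group fixed in the design, such as the Hox genes. Others, such as ct, Drgx, Dll and exex, met none of these and were named with their values seen. Intervals cover counting error only, since PCR reads without molecular identifiers are not independent molecules.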

Additional observations from a re-analysis of the deposited data

Results flagged for a closer look

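The 14 kept cells with under 100 CPM of Tdc2 entered no main comparison. Some or all entered the alternatives with a Tdc2 threshold of 50 CPM or with all kept cells. The 4 members on in at least 5 of the 14 with sums above the octopaminergic level are given here. pros summed to 3603 CPM and was on in 10 of the 14, against 6.57 CPM in tyraminergic and 166.3 CPM in octopaminergic cells. hth summed to 391.9 CPM, against 721 and 91.5 CPM in the same 2 classes, and scro to 186.4 CPM, against 297 and 7.78 CPM. pdm3 summed to 111.9 CPM, with 6 of 14 cells on, against 0 and 105.3 CPM. These cells numbered 5, 4, 1 and 4 in mutant males, wild-type males, mutant females and wild-type females. They had a median of 13141 CPM over the 8 glial markers and 198.8 CPM of Vmat. The part of glial RNA in these values was not tested.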

How the results depend on the processing

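hth was called higher in tyraminergic cells under each of 17 alternatives. DESeq2 called 2.33% of genes higher and 4.72% lower, with 5 and 10 members, and limma on per-cell means 2.61% and 1.28%, with 5 members higher. Without the replicate block, which keeps the pairing of the classes within a group, 0.60% of genes were higher and 2.04% lower, with 5 and 7 members. With every gene that had a count, the shares were 0.129% and 0.329%. Leaving out 1 group gave 0.0831% to 0.142% higher and 0.145% to 0.304% lower, with 1 to 3 members higher and 0 to 2 lower. A Tbh threshold of 50 CPM gave 4 members higher. A Tdc2 threshold of 50 CPM moved 3 cells with 2750 to 3160 CPM of pros into the tyraminergic class. These cells had 68.2 to 77.7 CPM of Tdc2 and glial sums of 5569 to 8725 CPM. At that threshold 0.194% of genes were lower, with 1 member higher and 1 lower. There pros turned to 0.95 (adjusted p = 0.88), while 8 of its 17 alternatives passed. Running numbers above 96 gave 2 members lower and a glial sum under 500 CPM 1; both limits were chosen after seeing the data. At 300 CPM, 6 members were on in at least 5% of cells. Tyraminergic codes numbered 7 at 30 CPM and 2 at 300 CPM, and octopaminergic codes 18 at 300 CPM. In mutants 1 member passed 2-fold in both sexes with running numbers above 96, and 1 with low glial sums, where 0.147% of genes did at each setting. In males pros passed in both genotypes with mean per-cell CPM, without nearly identical pairs or with all kept cells. At these settings 3.50%, 2.18% and 1.68% of genes passed. At a minimum mean of 1 CPM 1 member passed, Dll (2.17 in mutants and 3.16 in wild type). With running numbers above 96 also 1 passed, which was not pros, and 5.16% of genes did. The cause of these shifts was not tested. Tyraminergic values rest on 3 or 4 cells a group.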

Other observations

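A few members appeared in 1 or 2 Tdc2-positive cells, each of them octopaminergic. Drgx, a paired-like factor, was at 509 and 575 CPM in 2 wild-type male cells whose glial markers summed to 33404 and 49854 CPM. The cell at 575 CPM also had Dll, the limb-patterning gene Distal-less, at 297 CPM. otp, or orthopedia, was at 163.5 CPM in 1 mutant female cell and 274.04 CPM in 1 wild-type male cell. exex, a motor-neuron gene of the Hb9 type, was at 435 CPM in the mutant female cell that had Antp at 118 CPM.

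Among the other homeodomain genes, toy, a Pax6 gene, was named after its values were seen. It summed to 268.7, 43.5, 27.7 and 261.5 CPM in tyraminergic cells of mutant males, wild-type males, mutant females and wild-type females, set against 6.55, 27.3, 0.289 and 0.0862 CPM in octopaminergic cells. It was higher in 4 of 4 groups and did not pass edgeR's test (adjusted p = 0.26). The 2 groups with the higher toy sums, mutant males and wild-type females, were also the 2 with the higher Gsc sums.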
